A study of Danio rerio with 6 samples.

Results

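DEAD and DEAH box RNA helicases are ATPases that bind RNA, open short duplexes and move proteins on and off RNA. They are named after the amino acids of a conserved motif that takes part in ATP binding and hydrolysis. Members of the family act at each step in the life of an RNA, from ribosome assembly in the nucleolus and pre-mRNA splicing to mRNA export, translation, storage and decay. The oocyte makes and stores ribosomes and maternal mRNA for the embryo, and Ddx4 (Vasa), the best known germline member, is a component of germ granules.

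The helicases described here are the genes whose symbol starts with ddx or dhx and a number. There were 52 such rows among the 32519 genes of the table, of which ddx4, ddx6 and dhx58 were not taken into the group. Of the remaining 49, 48 had at least 10 counts in at least 3 libraries, and all 48 were among the 19353 genes tested. The gene below that limit was one of 2 genes with the symbol DHX32 (ENSDARG00000079029), with 14, 3 and 7 counts in WT and 8, 0 and 10 counts in ddx4-L mutant libraries. The 48 comprised 33 genes with a ddx and 15 with a dhx symbol. The rule uses names and a count minimum, not the difference between the genotypes.

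Ovarian RNA of zebrafish at 6 months post-fertilization was sequenced from 3 WT and 3 ddx4-L mutant (ddx4-E4Δ) samples, with 1 library per replicate and no other treatment. The mutant is a CRISPR-Cas9 line with a short deletion in the alternatively spliced exon 4 of ddx4, so that the long, ovary-biased transcript is disrupted and the short transcript remains. It is a single line, and the strain of the WT fish was not given in the sources used here. The question was whether related helicases changed with the ddx4 lesion.

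The column sums ranged from 76520483 to 86263179 and did not separate the genotypes (exact permutation test, two-sided, n = 3, p = 0.6, where the smallest p possible is 0.1). Levels are given as CPM, the deposited counts scaled to a common library size after TMM, and they are not divided by transcript length, so that a value is read between libraries and not as a rank of one gene against another. A gene was called when its adjusted p was under 0.05, where p came from the quasi-likelihood test in edgeR and was adjusted over every gene tested by the Benjamini-Hochberg method. The p-values rest on the spread between 3 libraries of each genotype, with each gene's spread estimate drawn toward that of the other genes. They do not cover variation between mutant lines. The level of ddx4 itself was 216, 242 and 211 CPM in WT and 231, 248 and 250.5 CPM in mutant libraries (log2 fold change 0.13, adjusted p = 0.47), and counts over the whole gene do not tell its transcripts apart.

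For most helicases the difference between the genotypes was small in size. Of the 48, 29 had a log2 fold change within 0.2 of 0 and 4 had one of 0.5 or more in either direction, namely DHX40, DHX38, DDX11 and DHX33. These counts by size were not taken over all genes tested. DDX20 and DDX54 were called, both lower in the mutant, and no helicase was called higher. These 2 of 48 (4.17%) stand beside a background of 4.57% of all genes tested, with 1.96% called higher and 2.61% called lower. None reached the DEG limit of an adjusted p under 0.05 with a log2 fold change of 1 or more in either direction, which 3.11% of all genes reached. With DESeq2, 9 helicases (18.8%) had an adjusted p under 0.05, beside a background of 12.1%. Of them 1, DHX40, reached the DEG limit, and the share of all genes that did so with DESeq2 was not computed. Both genes called by edgeR were among those 9.

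At an unadjusted p under 0.05, 5 helicases (10.4%) were higher, beside 9.98% of all genes, and 12 (25.0%) were lower, beside 9.96%. In both directions they were 17 (35.4%), beside 19.9%. The genotypes did not overlap for 22 helicases (45.8%), beside 28.4% of all genes, with 8 higher (16.7%, beside 14.3%) and 14 lower (29.2%, beside 14.0%). The counts in each direction moved with the scaling, for the helicases and for all genes. When libraries were scaled by their column sums alone, 8 helicases (16.7%, beside 13.7% of all genes) were higher and 7 (14.6%, beside 7.70%) lower at an unadjusted p under 0.05. The groups without overlap were then 9 higher (18.8%, beside 19.4%) and 10 lower (20.8%, beside 10.5%), so that the share of lower helicases was above that of all genes with either scaling. The calls were then DDX47 and DDX56 higher and DDX20 and DDX54 lower, while 4.88% of all genes were called in either direction. The median log2 fold change of the 48 was -0.06 with TMM scaling and turned to 0.02 with column sums, while that of all genes tested was 0.01 and 0.10.

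The helicases were measured more precisely than the average gene. Their mean level ranged from 8.88 to 1262.9 CPM with a median of 77.2 CPM, beside a median of 8.01 CPM over all genes tested. The lowest count of any helicase in any library was 482. The median standard error of the log2 fold change was 0.103 for the helicases and 0.3 for all genes tested. Among the 9368 tested genes within the CPM range of the helicases, a range taken after the values were seen, 5.18% were called by edgeR and 13.5% by DESeq2. In that range 22.4% had an unadjusted p under 0.05, with 11.1% higher and 11.3% lower. The genotypes did not overlap for 29.9% of them, with 14.5% higher and 15.4% lower.

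**Figure D1:**
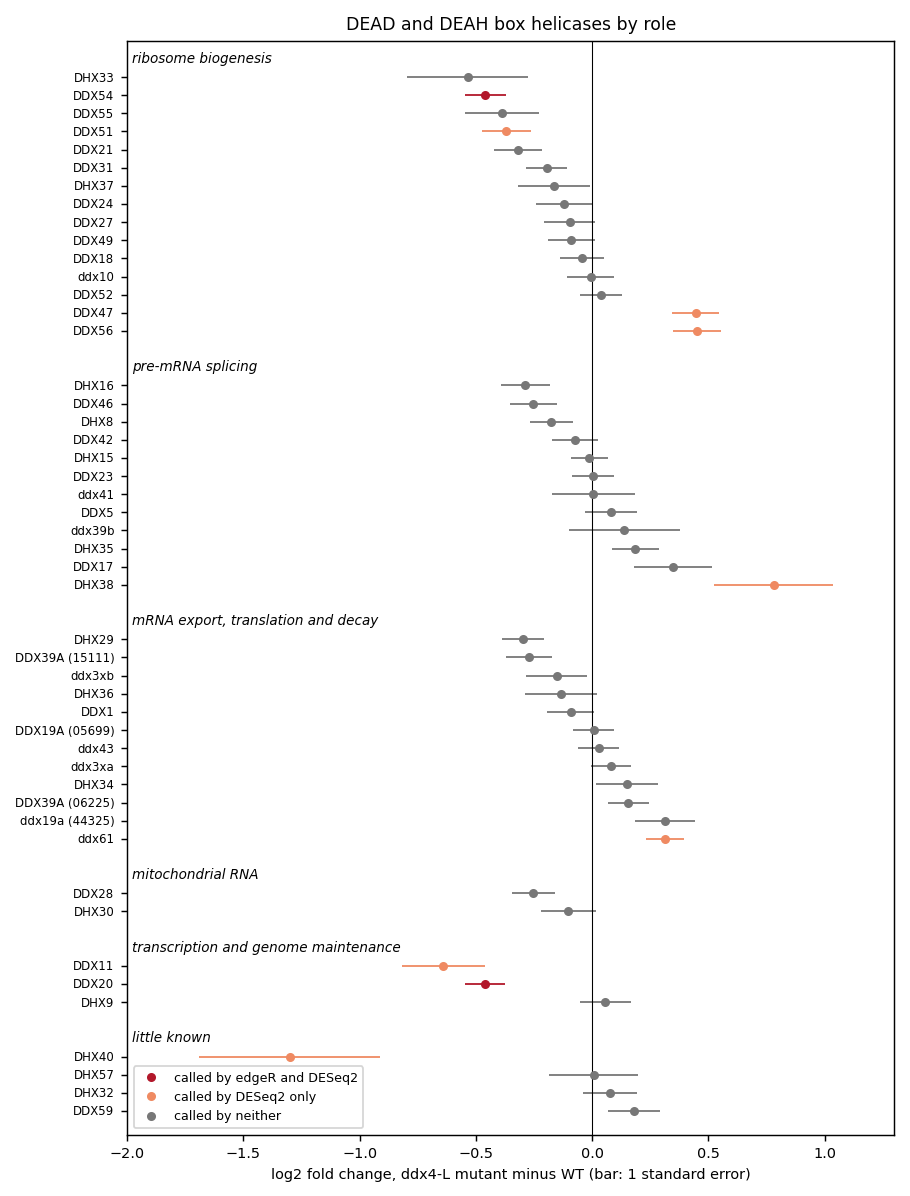
Log2 fold change (mutant minus WT) of each of the 48 helicases with its standard error, n = 3 libraries per genotype, ordered by value within each role and coloured by the edgeR and DESeq2 calls. Most lie within 0.2 of 0, and DHX40, at -1.30, and DHX38, at 0.78, are the ends of the range and have wide error bars.

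DDX20 (ENSDARG00000061204), also known as Gemin3, is a component of the SMN complex, which assembles spliceosomal snRNPs, and also acts in transcriptional repression. It was at 147, 129 and 133 CPM in WT and at 92.7, 105 and 99.7 CPM in mutant ovaries. Each mutant library was below each WT library. The mean fell by 27.4%, with a log2 fold change of -0.46 (adjusted p = 0.032 with edgeR, standard error 0.087). DDX54 (ENSDARG00000105286), a nucleolar helicase that takes part in ribosome biogenesis, was at 175, 166 and 181 CPM in WT and at 120.5, 139 and 120.5 CPM in mutant ovaries. Its groups did not overlap either, and its mean fell by 27.2%, with a log2 fold change of -0.46 (adjusted p = 0.033 with edgeR, standard error 0.088). Both calls were close to the threshold. With any 1 library left out, DDX20 was called in 0 of 6 fits (adjusted p 0.07 to 0.11) and DDX54 in 1 of 6, without mutant replicate 2 (adjusted p 0.048 to 0.11), and all fits kept them lower.

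**Figure D2:**
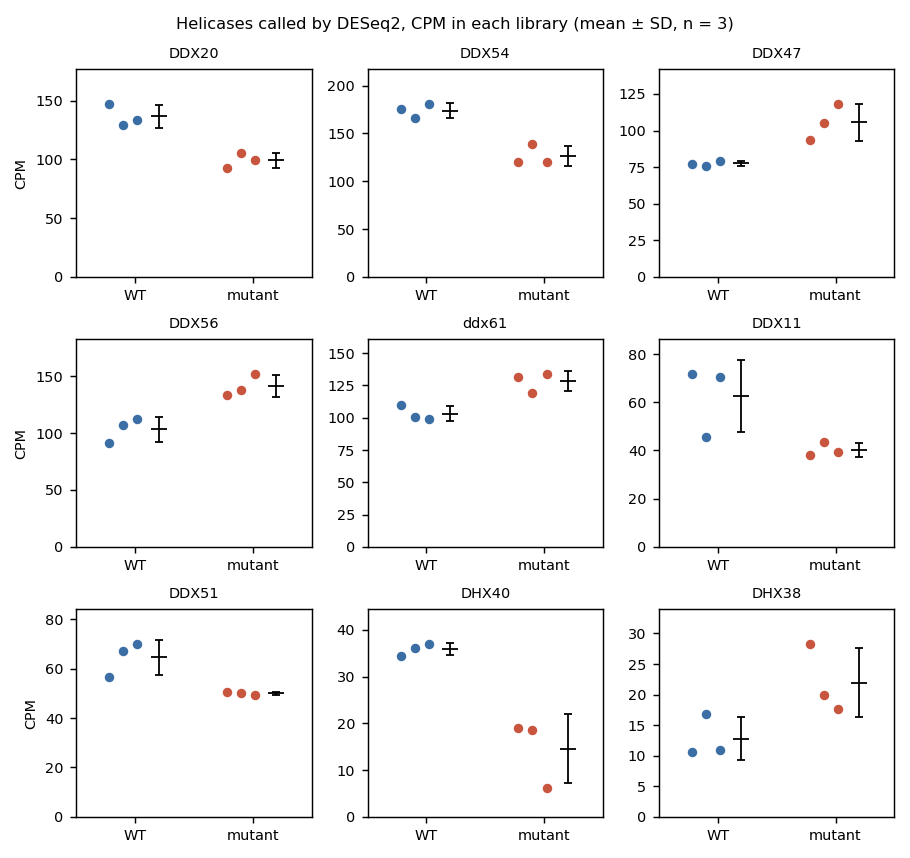
CPM in each library of the 9 helicases that had an adjusted p under 0.05 with DESeq2, with the mean ± SD of 3 libraries beside the points and axes that start at 0. The genotypes do not overlap in any of the 9 panels, and the lowest point of DHX40 is the mutant library at 6.08 CPM.

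Ribosome biogenesis was the largest role, with 15 helicases that process and fold pre-rRNA in the nucleolus. In the mutant, 1 was called lower (DDX54) and 0 higher, with 2 higher and 4 lower at an unadjusted p under 0.05 and 2 higher and 2 lower with DESeq2. Of all genes tested, 4.57% were called by edgeR and 12.1% by DESeq2, in either direction. At an unadjusted p under 0.05, 9.98% of all genes were higher and 9.96% lower. Of the 15, 12 had a log2 fold change below 0 and 3 one above 0, beside 48.5% of all genes below 0, and with column sums as scaling 10 and 5, beside 40.1%. The median log2 fold change was -0.12, or -0.04 with column sums.

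DDX47 (ENSDARG00000102353), a helicase of early 18S rRNA processing, was at 77, 76 and 79.5 CPM in WT and 93.2, 105 and 118 CPM in mutant ovaries. DDX56 (ENSDARG00000020913), a nucleolar helicase of the large ribosomal subunit, was at 91.1, 107 and 112 CPM in WT and 134, 138 and 152 CPM in mutant ovaries. Each mutant library was above each WT library for both genes. Their log2 fold change was 0.45, with standard errors of 0.101 and 0.102, and both had an adjusted p of 0.055 from edgeR, just above the threshold. With DESeq2 the adjusted p was 0.0085 for DDX47 and 0.0066 for DDX56. DDX54 on the one side and DDX47 and DDX56 on the other thus differed in direction within the same role.

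DDX51 (ENSDARG00000025854), which acts in the maturation of the large subunit rRNA, was at 56.7, 67.1 and 70.1 CPM in WT and 50.5, 50.2 and 49.4 CPM in mutant ovaries. The mutant libraries lay close together and below all WT libraries (log2 fold change -0.37, adjusted p = 0.1 with edgeR and 0.026 with DESeq2). DDX21 (ENSDARG00000063626), which binds rRNA and snoRNAs and is linked to RNA polymerase I transcription, was at 361, 320.2 and 379 CPM in WT and 264, 311 and 275 CPM in mutant ovaries. Its groups did not overlap, with mutant replicate 2 close to WT replicate 2 (log2 fold change -0.32, adjusted p = 0.15 with edgeR). DDX55 (ENSDARG00000009864), another large subunit factor, was at 34.1, 28.4 and 26.4 CPM in WT and 19.1, 23.4 and 25.3 CPM in mutant ovaries, again without overlap (log2 fold change -0.39, unadjusted p = 0.044, adjusted p = 0.23 with edgeR).

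DDX31 (ENSDARG00000035507), a nucleolar helicase, was at 103, 123 and 119 CPM in WT and 96.4, 102 and 103 CPM in mutant ovaries. DHX33 (ENSDARG00000051785), a DEAH box helicase linked to rRNA transcription, was at 15.8, 23.4 and 22.0 CPM in WT and 15.4, 17.2 and 9.54 CPM in mutant ovaries. The groups of DDX31 came within 1 CPM of each other without overlap, and those of DHX33 overlapped in part. Neither was called (log2 fold change -0.20 and -0.54, adjusted p = 0.28 and 0.31 with edgeR). The other 7 ribosomal helicases, DHX37, DDX24, DDX49, DDX27, DDX18, DDX52 and ddx10, overlapped between the genotypes and had adjusted p from 0.62 to 0.98 with edgeR. Among them DHX37, which acts in small subunit assembly, varied within both genotypes, with 162, 215 and 216 CPM in WT and 164, 209 and 156 CPM in mutant ovaries. DDX18 was at 185 to 204 CPM in WT and 168 to 204 CPM in the mutant.

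Pre-mRNA splicing was the role of 12 helicases, of which 0 were called by edgeR and 1, higher, by DESeq2. Each helicase was placed in 1 role only. DDX20, called lower and part of the SMN complex, was placed under transcription and genome maintenance and is not in these counts. Over all genes these shares were 4.57% and 12.1% in either direction. At an unadjusted p under 0.05, 1 splicing helicase was higher and 2 were lower, beside 9.98% and 9.96% of all genes. The median log2 fold change was 0.00, or 0.08 with column sums. DHX38 (ENSDARG00000100013), known as Prp16 in yeast, remodels the spliceosome around the second catalytic step. It was at 10.6, 16.8 and 11.0 CPM in WT and 28.3, 20 and 17.6 CPM in mutant ovaries. All mutant libraries were higher, but the libraries of each genotype spread widely (log2 fold change 0.78, adjusted p = 0.15 with edgeR and 0.032 with DESeq2, standard error 0.256).

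DHX16 (ENSDARG00000013150), the counterpart of yeast Prp2, activates the spliceosome. It was at 114, 108 and 123 CPM in WT and 89.6, 107 and 86.2 CPM in mutant ovaries. DDX46 (ENSDARG00000099458), the counterpart of yeast Prp5, acts when the U2 snRNP joins the branch site, and was at 198, 202 and 208 CPM in WT and 168, 192 and 151 CPM in mutant ovaries. Both were lower in each mutant library, with mutant replicate 2 nearest to WT (log2 fold change -0.29 and -0.25, unadjusted p = 0.028 and 0.04, adjusted p = 0.18 and 0.22 with edgeR).

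DDX17 (ENSDARG00000010873), a coregulator of transcription and splicing, was at 21.3, 21.4 and 19.9 CPM in WT and 30.6, 28.4 and 20.7 CPM in mutant ovaries. Its close relative DDX5 (ENSDARG00000038068) was at 566, 533 and 474 CPM in WT and 499, 609 and 555 CPM in mutant ovaries. Mutant replicate 3 of DDX17 fell within the WT range, and the groups of DDX5 overlapped (log2 fold change 0.35 and 0.08, adjusted p = 0.31 and 0.75 with edgeR). DHX8, which releases mRNA from the spliceosome, and DHX35 did not overlap between the genotypes but were not called (log2 fold change -0.18 and 0.19, adjusted p = 0.34 and 0.37 with edgeR). The remaining splicing helicases, DDX23, ddx41, DDX42, ddx39b and DHX15, had overlapping groups. DHX15, the counterpart of yeast Prp43 that takes spliceosomes apart, was among the most even genes, at 161, 158 and 164 CPM in WT and 149.7, 171 and 158 CPM in mutant ovaries (log2 fold change -0.01, standard error 0.079).

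mRNA export, translation and decay was the role of 12 helicases, of which 0 were called by edgeR and 1, higher, by DESeq2. Over all genes these shares were 4.57% and 12.1% in either direction. At an unadjusted p under 0.05, 2 helicases of this role were higher and 2 lower, beside 9.98% and 9.96% of all genes. The median log2 fold change was 0.02, or 0.10 with column sums. The gene ddx61 (ENSDARG00000018425) was at 109.9, 100.4 and 99.3 CPM in WT and 131, 119 and 134 CPM in mutant ovaries. All mutant libraries were above all WT libraries (log2 fold change 0.31, adjusted p = 0.085 with edgeR and 0.033 with DESeq2). DHX29 (ENSDARG00000040326), which helps the small ribosomal subunit scan structured leaders, was at 105, 104 and 97.5 CPM in WT and 86.7, 87.5 and 74.7 CPM in mutant ovaries, without overlap (log2 fold change -0.30, adjusted p = 0.12 with edgeR). DHX34, DHX36, DDX1 and ddx43 overlapped between the genotypes. Of these, ddx43, which in mammals is best known from the testis, was at 64.2, 62.7 and 57.2 CPM in WT and 59.9, 64.4 and 63.2 CPM in mutant ovaries.

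The remaining members of this role belong to pairs of close relatives, whose reads the counting could have split unevenly, so that their separate levels are uncertain. ddx3xb (ENSDARG00000005774) and ddx3xa (ENSDARG00000020573) correspond to DDX3X, which promotes translation of mRNAs with structured leaders. ddx3xb was at 1298, 1312 and 1378 CPM in WT and 1184, 1391 and 1014 CPM in mutant ovaries, and ddx3xa was at 213, 227 and 226 CPM in WT and 242, 248 and 215 CPM in mutant ovaries. Neither differed beyond the spread of its libraries (log2 fold change -0.15 and 0.08, adjusted p = 0.58 and 0.65 with edgeR). The share of ddx3xa in the summed CPM of the pair was 14.1%, 14.7% and 14.1% in WT and 17.0%, 15.1% and 17.5% in mutant libraries. The shares did not overlap between the genotypes, and the means were 14.3% ± 0.363 for WT and 16.5% ± 1.25 for mutant libraries (SD, n = 3). No test was made of these shares, and no background of other gene pairs was taken.

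The symbol DDX39A, an mRNA export helicase related to UAP56, was carried by a pair of genes. One of them (ENSDARG00000015111) was at 547, 516 and 562 CPM in WT and 408, 488 and 450.3 CPM in mutant ovaries, lower in each mutant library (log2 fold change -0.27, unadjusted p = 0.027, adjusted p = 0.18 with edgeR). The other (ENSDARG00000006225) was at 231, 227 and 219 CPM in WT and 232, 250.4 and 272 CPM in mutant ovaries, higher in each mutant library (log2 fold change 0.16, adjusted p = 0.38 with edgeR). The share of the latter in the summed CPM of both was 29.7%, 30.6% and 28.1% in WT and 36.2%, 33.9% and 37.7% in mutant libraries (means 29.5% ± 1.27 and 36.0% ± 1.9, SD, n = 3). The balance of the pair thus differed between the genotypes without overlap, although neither gene was called. This balance was looked at after the values of both genes were known, and no test was made of it.

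For the nuclear pore helicase DDX19, which strips proteins from mRNA on the cytoplasmic side of the pore, DDX19A (ENSDARG00000005699) was at 314, 303 and 329.8 CPM in WT and 299, 338 and 314 CPM in mutant ovaries. Its groups overlapped, and its log2 fold change of 0.01 changed sign with the scaling. The gene ddx19a (ENSDARG00000044325) was at 31.8, 30.1 and 36.2 CPM in WT and 45.3, 36.2 and 40.3 CPM in mutant ovaries (log2 fold change 0.31, unadjusted p = 0.045, adjusted p = 0.24 with edgeR). DDX19A made up 90.1% to 90.9% of the pair in WT and 86.8% to 90.3% in mutant libraries, and these ranges overlapped.

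**Figure D3:**
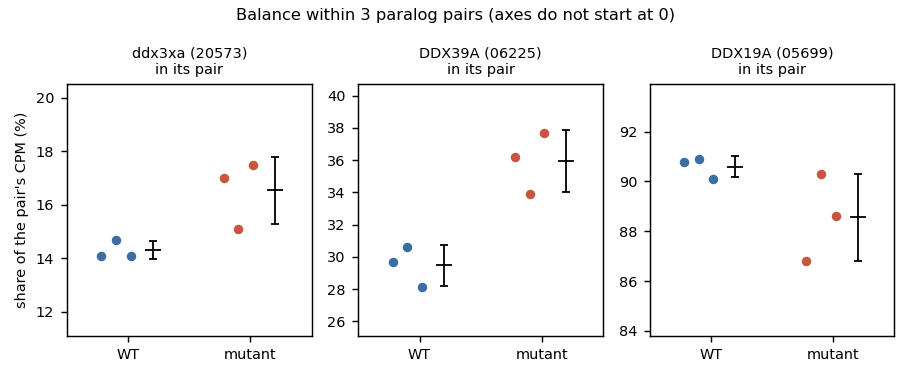
Share of 1 gene in the summed CPM of a pair of close relatives, in each library, with the mean ± SD of 3 libraries; the axes do not start at 0. The shares of ddx3xa and of DDX39A (ENSDARG00000006225) are higher in all mutant libraries, and that of DDX19A overlaps. No test was made of the shares.

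Of the helicases of transcription and genome maintenance, DDX20 is described above. DDX11 (ENSDARG00000011072), a DNA helicase of sister chromatid cohesion that carries a DEAH box, was at 71.8, 45.6 and 70.5 CPM in WT and 38.0, 43.4 and 39.2 CPM in mutant ovaries. The groups did not overlap, but WT replicate 2 stood close to the mutant libraries. The gene had a log2 fold change of -0.64 (adjusted p = 0.099 with edgeR and 0.013 with DESeq2, standard error 0.18), and without WT replicate 2 it was -0.83 with an adjusted p of 0.023 from edgeR. In the other edgeR fits with 1 library left out the adjusted p of DDX11 was 0.16 to 0.26. DHX9, which unwinds structured RNA and acts with RNA polymerase II, was at 41.8, 42.6 and 42.1 CPM in WT and 44.2, 48.3 and 39.1 CPM in mutant ovaries, which overlapped.

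DHX40 (ENSDARG00000041586), a DEAH box helicase of little known function, had the largest difference of all 48. It was at 34.4, 36.1 and 37.0 CPM in WT and 19.0, 18.6 and 6.08 CPM in mutant ovaries, from 482 counts in mutant replicate 3 to 3123 in WT replicate 3. All mutant libraries were lower, and mutant replicate 3 was far below the other mutant libraries. The log2 fold change was -1.30 (standard error 0.389), with an adjusted p of 0.12 from edgeR and 0.0039 from DESeq2. Without mutant replicate 3 it was -0.93 and the gene was called (adjusted p = 0.018 from edgeR). In the other edgeR fits with 1 library left out the adjusted p of DHX40 was 0.15 to 0.22. The remaining helicases of little known function were DHX57, DDX59 and the better counted DHX32 gene (ENSDARG00000077461). DDX59 was at 44.3, 55.4 and 54.0 CPM in WT and 57.7, 56.4 and 60.2 CPM in mutant ovaries, higher in each mutant library (log2 fold change 0.18, adjusted p = 0.42 with edgeR). DHX32 was at 80.7, 88.2 and 83.6 CPM in WT and 75.1, 100.1 and 91.3 CPM in mutant ovaries, which overlapped (adjusted p = 0.76 with edgeR).

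The 2 helicases of mitochondrial RNA both take part in mitochondrial ribosome assembly. DDX28 (ENSDARG00000060411) was at 108, 96.4 and 108 CPM in WT and 79.7, 93.4 and 89.3 CPM in mutant ovaries, lower in each mutant library (log2 fold change -0.25, unadjusted p = 0.028, adjusted p = 0.19 with edgeR). DHX30 overlapped between the genotypes (log2 fold change -0.10, adjusted p = 0.69 with edgeR). Neither was called.

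The mutant libraries differed among themselves in a way shared by many helicases. Mutant replicate 2 was the highest of the 3 mutant libraries for 30 of the 48 genes and the lowest for 3. Mutant replicate 1 was the lowest for 24 and mutant replicate 3 for 21. In WT, each library was the lowest for 13 to 19 genes. These ranks were not taken over all genes tested, so they have no background beside them. The summed CPM of the 48 was 6778, 6694 and 6893 in WT and 6089, 6909 and 6123 in mutant libraries. Mutant replicate 2 was thus just above the WT libraries and the other mutant libraries below them, so that the groups overlapped. Part of this pattern is ddx3xb, the helicase of highest CPM. It was at 1298.5 to 1378.5 CPM in WT and 1183.5, 1390.7 and 1014.5 CPM in mutant libraries. The sum without ddx3xb was not computed. Mutant replicate 1 has the highest TMM factor, 1.08, which by itself gives it the lowest summed CPM over all genes tested too. With column sums the helicases summed to 6556, 6509 and 6736 in WT and 6569, 6904 and 6161 in mutant libraries. Mutant replicate 1 then lay within the WT range, mutant replicate 2 above it and mutant replicate 3 below it. Without mutant replicate 2, 36 of the 48 had a log2 fold change below 0 and their median was -0.14, while the median of all genes tested was 0.007. Leaving out the library that was highest for 30 of them lowers their values by construction. With all libraries 27 were below 0, and the other fits with 1 library left out gave 25 to 30. The share of all genes below 0 without mutant replicate 2 was not computed.

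The spread within a genotype was a median coefficient of variation of 6.53% in WT and 9.08% in the mutant. It was above 20% for 2 helicases in WT and for 5 in the mutant, where DHX40 had the highest value, 50.4%.

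**Figure D4:**
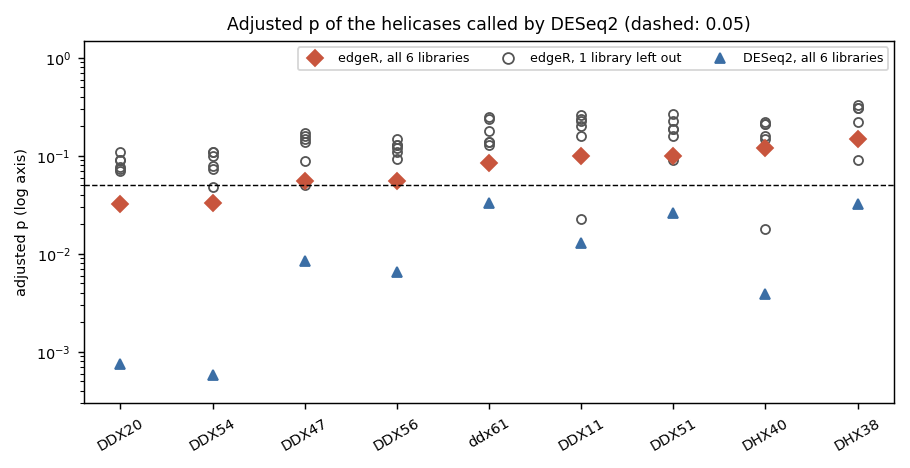
Adjusted p (log scale) from edgeR for the 9 helicases called by DESeq2, with all libraries (diamonds) and with each library left out in turn (circles), beside the DESeq2 value (triangles); the dashed line marks 0.05. DDX20 and DDX54 lie below the line with all libraries, and most circles lie above it.

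DDX20 works in the SMN complex, and the genes of its partners differed in direction. The SMN gene smn1 (ENSDARG00000018494) was at 96.6, 96.8 and 100.4 CPM in WT and 84.8, 96.1 and 117 CPM in mutant ovaries. GEMIN2 (ENSDARG00000015638), which binds SMN, was at 37.8, 37.1 and 36.1 CPM in WT and 38.5, 44.2 and 47.6 CPM in mutant ovaries. GEMIN5 (ENSDARG00000079257), which recognizes snRNAs, was at 122, 128 and 120.3 CPM in WT and 107, 108 and 86.2 CPM in mutant ovaries. Thus smn1 overlapped, GEMIN2 was higher and GEMIN5 lower without overlap, and none was called (adjusted p = 0.95, 0.31 and 0.16 with edgeR). The genes gemin6, GEMIN7 and GEMIN8 overlapped.

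GEMIN4 (ENSDARG00000041252), which binds DDX20 directly, was singled out after its values were seen. It had 3681, 4227 and 4052 counts in WT libraries, while mutant replicates 1 and 2 had 0 counts and mutant replicate 3 had 6576. The mutant libraries therefore lay on both sides of WT, and the gene was not called (adjusted p = 0.85 with edgeR). Without mutant replicate 3 it was called (adjusted p = 0.00045 with edgeR). That fit removes the only mutant library with counts, so its outcome follows from the 0 counts of the others. It was the 1 fit with a library left out that called GEMIN4. DDX20 was at 92.7 and 105 CPM in the mutant libraries without GEMIN4 counts and at 99.7 CPM in the one with them. A relation between these genes was not tested.

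**Figure D5:**
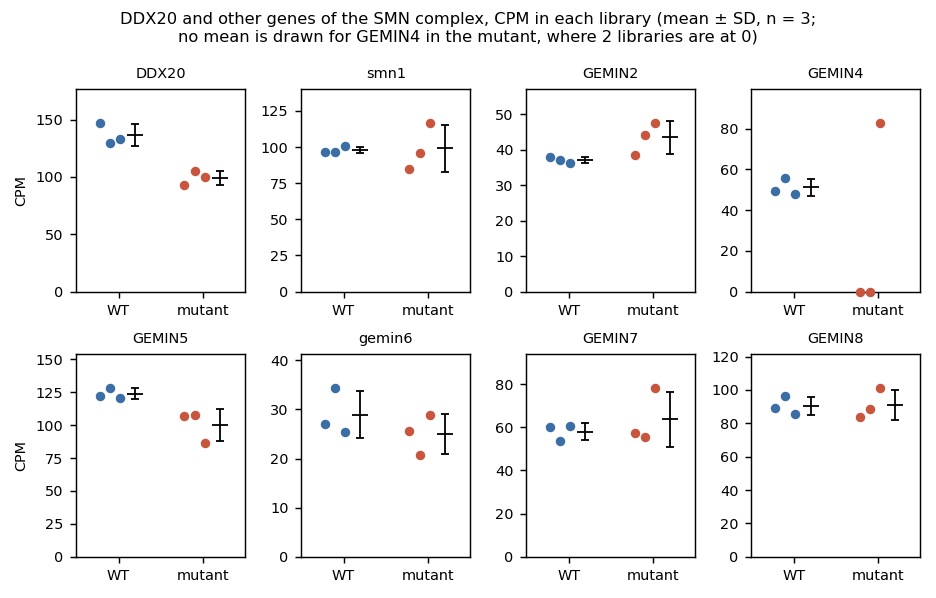
CPM of DDX20 and members of the SMN complex in each library, with the mean ± SD of 3 libraries; no mean is drawn for GEMIN4 in the mutant. DDX20 is lower in all mutant libraries, while GEMIN4 is at 0 in 2 mutant libraries and at 83.0 CPM in the third.

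RNA helicases outside the ddx and dhx names were taken from a list of 27, of which 21 were found and tested. By edgeR 2 (9.52%, beside 1.96% of all genes) were called higher and 0 (beside 2.61%) lower. At an unadjusted p under 0.05, 2 were higher (beside 9.98% of all genes) and 4 lower (beside 9.96%). DESeq2 called 2 higher and 1 lower, beside 12.1% of all genes in either direction. MTREX (ENSDARG00000013457), the exosome helicase that feeds nuclear RNA into decay, was at 121, 122 and 127 CPM in WT and 178, 187 and 189 CPM in mutant ovaries. It rose with a narrow spread (log2 fold change 0.58, adjusted p = 0.0079 with edgeR, standard error 0.071) and was called in 6 of 6 fits with 1 library left out. IGHMBP2 (ENSDARG00000069274), a helicase associated with ribosomes, was at 37.2, 34.9 and 34.7 CPM in WT and 55.0, 49.3 and 51.8 CPM in mutant ovaries (log2 fold change 0.55, adjusted p = 0.025 with edgeR), and was called in 0 of 6 such fits (adjusted p 0.051 to 0.088). EIF4A2 (ENSDARG00000016477), a helicase of translation initiation, was at 45.4, 50.7 and 40.7 CPM in WT and 31.6, 33.4 and 34.1 CPM in mutant ovaries, lower in each mutant library (adjusted p = 0.07 with edgeR and 0.0068 with DESeq2).

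Of 50 listed cofactors and partners of RNA helicases, 48 were found and tested. By edgeR 0 were called, beside 4.57% of all genes, and DESeq2 called 0, beside 12.1%. DESeq2 gave no adjusted p for GEMIN4. At an unadjusted p under 0.05, 3 were higher (beside 9.98% of all genes) and 3 lower (beside 9.96%). Their median log2 fold change was -0.07. Mutant replicate 3 was low in some genes beside DHX40. The helicase ASCC3 (ENSDARG00000086678) was at 81.7, 83.0 and 41.1 CPM and nup214 (ENSDARG00000016212), the nuclear pore partner of DDX19, at 98.8, 114 and 30.6 CPM in mutant replicates 1, 2 and 3. In WT they ranged from 97.8 to 109 CPM and from 94.4 to 109 CPM. Of the same lists, SMG1 and SNRNP200 were also lowest of all libraries in mutant replicate 3, at 129.4 and 79.8 CPM. In the other direction, gpatch4 and SARNP were highest of all libraries there, at 157.2 and 115.4 CPM. How many genes went each way in this library was not counted. All these genes were chosen after their values were seen.

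The cell type markers were summed in each library to set them beside these values. The oocyte markers (14 found) summed to 18377, 18666 and 17348 CPM in WT and 16083, 18544 and 21323 CPM in mutant libraries, which overlapped. This sum is carried by zp2.1 and zp3, genes of the egg coat, and without them it was 8177, 8291 and 8080 CPM in WT and 6239, 7427 and 8346 CPM in mutant libraries. Of the 14, 2 (14.3%, beside 2.61% of all genes) were called lower and 0 (beside 1.96%) higher. These were GDF9 (76.5, 66.5 and 69.0 CPM in WT, 38.8, 39.9 and 41.3 CPM in the mutant, adjusted p = 0.0064 with edgeR) and pou5f3 (64.0, 45.0 and 41.2 CPM in WT, 17.9, 15.0 and 19.0 CPM in the mutant, adjusted p = 0.0085 with edgeR). In the other direction, zp3 was higher in each mutant library (2890.8, 2312.8 and 2159.0 CPM against 3375.9, 3650.5 and 4426.4 CPM). Its adjusted p was 0.076 with edgeR and 0.0012 with DESeq2. Of the 14, 9 had a log2 fold change below 0 and 5 above 0. The early meiotic germ cell markers summed to 31.2, 24.2 and 28.5 CPM in WT and 8.77, 12.2 and 9.27 CPM in mutant libraries, with rec8a, a meiotic cohesin, at 0 in all. SYCP1, of the synaptonemal complex, carried that difference, at 23.1, 17.7 and 20.6 CPM in WT and 0.732, 0.889 and 0.795 CPM in the mutant (adjusted p = 0.00015 with edgeR). Without it the sums were 8.10, 6.42 and 7.85 CPM in WT and 8.04, 11.3 and 8.48 CPM in mutant libraries, which overlapped. In mutant libraries most of this remaining sum was syce2, which was higher there. The overlap of the sum therefore does not show that the other markers were unchanged. Of the 6 markers of this list that were tested, 5 had a log2 fold change below 0 and 1, syce2, above 0. In each mutant library syce2 was higher (3.06, 3.26 and 4.66 CPM against 6.49, 8.74 and 7.43 CPM, adjusted p = 0.077 with edgeR). At low levels, SYCP3 (0.900, 0.556 and 0.783 CPM against 0.096, 0.105 and 0 CPM) and smc1b (1.29, 1.38 and 1.02 CPM against 0.564, 0.628 and 0.341 CPM) were lower in each mutant library. Neither was called (adjusted p = 0.12 and 0.17 with edgeR), and SYCP3 had an adjusted p of 0.019 with DESeq2. The stroma and endothelium markers varied from 65.6 to 287.5 CPM in WT and from 137.9 to 551.9 CPM in the mutant, highest in mutant replicate 1. Granulosa and theca markers summed to 96.7, 101.1 and 71.2 CPM in WT and 114.4, 108.4 and 102.9 CPM in mutant libraries, without overlap. Most of this sum was CYP17A1 (74.3, 72.6 and 33.0 CPM against 78.6, 89.0 and 86.3 CPM, adjusted p = 0.38 with edgeR). Of the 14 tested, 5 had a log2 fold change above 0 and 9 below 0, and 0 were called, beside 4.57% of all genes. Leukocyte markers ranged from 32.0 to 117 CPM and blood markers from 3.20 to 16.7 CPM over all libraries, and both overlapped. The genes cd8a, gata1a and 1 of 2 genes named INHBB (ENSDARG00000103892) were at 0 in all. The part of these marker differences in the values of the helicases was not tested, and in whole ovaries fewer cells of a type and less RNA per cell cannot be told apart.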

How the data were processed

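Ovarian RNA of 3 WT and 3 ddx4-L mutant fish was sequenced, with groups taken from the genotype labels. The authors describe trimming by Cutadapt, mapping to GRCz11 by STAR and counting by featureCounts, while the submitters' processing notes name HISAT2, StringTie, RSEM and DESeq2, so the counter is not settled. The annotation, the strand setting and the treatment of multi-mapping reads are not given in the sources used here. The paper and the labels also name different library kits. The values deposited by the authors are whole numbers per gene without scaling between libraries, and were treated as estimated counts. Their most frequent value above 0 is 4 in each library, so 1 fragment appears to be worth about 4 units, and dividing the values by 4 was an alternative. All 6 columns were used, and 0 were left out.

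Genes were filtered with filterByExpr, scaled by TMM and compared by edgeR 4.0.16 (R 4.3.3) with its quasi-likelihood test and no block, and p was adjusted by the Benjamini-Hochberg method over 19353 genes. CPM is the count scaled to a common library size after TMM. The standard error was derived from the log2 fold change and its quasi-likelihood F. Other scalings, other filters on low counts, a robust fit, DESeq2 1.42.0, other thresholds, a block for the replicate number and fits without each library were the alternatives. The procedure was tested on simulated counts of 19353 genes with the levels and spread of those tested. Of 100 genes changed by 1 log2 unit 26 were called, and of 100 changed by 2 units 58, with 10 false calls. Without a simulated difference 0 genes were called. The changed genes were drawn from all genes tested, which are mostly at lower levels than the helicases. Python 3.11.15 and matplotlib 3.10.9 were used for the figures.

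Symbols were found for 29200 of 32519 genes, and they do not always tell close relatives apart. Values are given for helicases that were called, for the 20 with the lowest p, for the 6 with the highest CPM, for pairs of close relatives and for those under the count minimum. DHX8, DHX35, DHX37, DDX18, DHX15, DHX30, ddx43, DHX9 and DDX59 fall outside this rule and were added after their values were seen. Of the other lists, genes called by edgeR are given. EIF4A2, the partners of DDX20, ASCC3, nup214, SMG1, SNRNP200, gpatch4, SARNP, zp3, syce2, SYCP3, smc1b and CYP17A1 were added after their values were seen. The 6 with the highest CPM were chosen without regard to transcript length, and the shares within pairs compare the genotypes, not the genes. The members and lists were chosen with earlier results of these data known. Transcript lengths and protein sequences were not used here.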

Additional observations from a re-analysis of the deposited data

How the results depend on the processing

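The number of helicases called was 2 with all libraries. It was 4 with column sums as scaling and 4 with values divided by 4 (DDX47 and DDX56 besides DDX20 and DDX54, so 2 were called higher in each), and 9 with DESeq2 (4 higher and 5 lower). Of all genes tested, 4.57% were called in the main fit, 4.88% with column sums, 6.91% with values divided by 4 and 12.1% with DESeq2. The number of helicases was 6 at an adjusted p under 0.1, where the share of all genes was not computed. At an unadjusted p under 0.05 it was 17 (35.4%), beside 19.9% of all genes. With 1 library left out the number called ranged from 0 to 1, and so did the number called lower: DDX11 without WT replicate 2, DDX54 without mutant replicate 2 and DHX40 without mutant replicate 3 were the single calls, and 0 were called without any of the other 3. Over all genes tested, these fits called 380 to 553 genes, beside 884 with all libraries, and DESeq2 called 2323. With the DEG limit, DESeq2 called 1 helicase, without a share over all genes to set beside it. Same-numbered libraries did not deviate together (correlations of -0.07, 0.08 and -0.02), so the numbers were not taken to pair the libraries. With the replicate number as a block, 0 helicases and 325 of all genes were called, DDX20 had an adjusted p of 0.11 and DDX54 one of 0.1, and 1 other RNA helicase was called higher. Of the other RNA helicases, 1 (MTREX) was called higher whichever library was left out and 1 was called lower with DESeq2. Of the cofactors and partners, 0 to 1 were called lower with 1 library left out, where the 1 was GEMIN4 without mutant replicate 3. The median log2 fold change of the helicases was 0.0201 with column sums and ranged from -0.1372 to -0.0168 with 1 library left out. Differences near 0 changed sign. With 1 library left out, DDX5 ranged from -0.0024 to 0.1495 and DHX32 (ENSDARG00000077461) from -0.0256 to 0.1842, with both lowest without mutant replicate 2. DDX19A (ENSDARG00000005699) was at -0.0022 with RLE scaling and with DESeq2, at -0.01 with upper-quartile scaling, at -0.0003 with values divided by 4, and ranged from -0.053 to 0.0446 with 1 library left out. The cause of these changes was not tested. The level per kilobase was not computed because no transcript lengths were used.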
